A study of Homo sapiens with 8 samples.

Results

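The 10 circadian clock genes ARNTL, CLOCK, PER1, PER2, PER3, CRY1, CRY2, NR1D1, NR1D2 and DBP were taken by symbol from the gene table of 16796 rows, and all 10 were present and passed the count filter. ARNTL is the older symbol of BMAL1. Their messenger RNA was measured in LX-2 cells, an immortalized human line of activated hepatic stellate cells, grown with 5% fetal bovine serum. Control cells received the vehicle DMSO, and OGTi cells received OSMI-1 at 50 µM, a small molecule that inhibits O-GlcNAc transferase (OGT). Both were harvested after 24 h, with 4 biological replicates a group, all of the same cell line. No step to synchronise the clocks of the cells is described in the sources used here, and RNA was taken at 1 time, so a shift in clock timing and a change in mean level cannot be told apart.

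The mammalian clock is a feedback loop of transcription. The proteins ARNTL (BMAL1) and CLOCK pair up and activate genes that carry an E-box, among them the PER, CRY and NR1D genes and DBP. PER and CRY proteins return to the nucleus and repress that pair, while the nuclear receptors NR1D1 and NR1D2 (REV-ERB alpha and beta) repress ARNTL through RORE elements, at which the ROR receptors activate. DBP is an output activator that binds D-boxes. OGT is known to modify clock proteins such as BMAL1, CLOCK and PER2 with O-GlcNAc, and the comparison here asked what inhibition of OGT did to their transcripts.

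Total counts per library ranged from 24166756 to 28201215, and no library was set aside. The 12 stellate cell and myofibroblast markers together reached 178100 to 207100 normalized counts in control and 132300 to 154200 in OGTi libraries, although DES, LRAT and HAND2 had means under 10. Of the hepatocyte, cholangiocyte, endothelial and leukocyte markers, APOA1, TF, KRT19, PECAM1, KDR, PTPRC and CSF1R had means under 10, and ALB, TTR, EPCAM, STAB2, CD163 and MARCO were not among the rows of the table. The summed hepatocyte markers were at 47.1 to 105 in control and 201 to 299 in OGTi libraries, the endothelial markers at 49.7 to 91.1 and 17.0 to 33.8, and the cholangiocyte markers at 681 to 1151 and 955 to 1273. The summed leukocyte markers, which consisted almost entirely of CD68, rose from 2419 to 4042 in control to 5517 to 9313 in OGTi libraries. The part of these marker differences in the results was not tested. Normalized counts are counts divided by the DESeq2 size factor of the library, and a gene was called when its DESeq2 q (Benjamini-Hochberg adjusted p over all genes) was 0.05 or lower. By gene, the hepatocyte marker CYP2E1 was called higher (log2 fold change 2.3), while SERPINA1 was not called (-0.078, q of 0.88). Of the cholangiocyte markers, SOX9 was called higher (0.35) and KRT7 lower (-1.05). Of the endothelial markers, CDH5 was called lower (-3.31) and VWF was not called (-0.404). The stellate sum consisted mostly of VIM, which was not called (-0.092), and COL1A1, which was called lower (-0.95). COL1A2, COL3A1, PDGFRB, ACTA2, RELN and BNC2 were also called lower. PDGFRA (-0.55, q of 0.0574), DES and LRAT were not called, HAND2 was not tested, and no stellate marker was called higher.

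In OGTi cells the clock genes moved in different directions. CRY1 and PER3 fell to 48.4% and 49.7% of control, PER2 to 63.1%, CLOCK to 75.9% and NR1D2 to 79.6%. ARNTL rose 1.88-fold and NR1D1 1.25-fold. In bulk RNA such a fall cannot be told apart from fewer cells that hold the transcript. PER1, CRY2 and DBP were not called. Of the 10 genes, 7 were called, against 46.6% of the 14028 genes with a q. Those called higher were 2, against a background of 22.7%, and those called lower were 5, against 24.0%. The median log2 fold change of the 10 genes was -0.15 and the median absolute value was 0.36, where all genes with a q had 0.0048 and 0.31. The libraries of both groups did not overlap for 4 of the 10 genes (ARNTL, PER2, PER3 and CRY1), a share equal to the 40.0% among all genes with a q. The members' share of called genes was above the background, but the 10 genes were chosen by name and no test of the set was made.

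**Figure D1:**
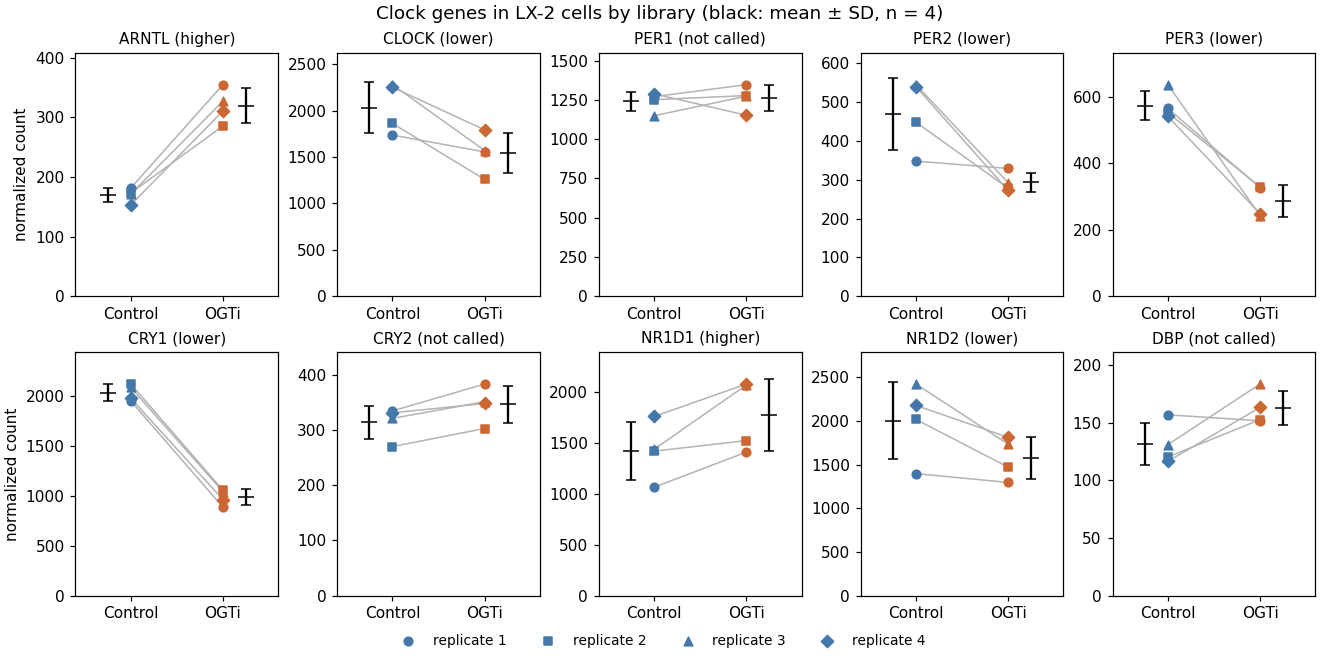
Normalized count of each clock gene (vertical axes, each from 0) in the 4 control and the 4 OGTi libraries, with lines joining libraries of the same replicate number and black bars giving mean ± SD (n = 4). The lines of CRY1, PER3 and PER2 fall and those of ARNTL rise with no overlap between groups, while the lines of NR1D1 and NR1D2 run in opposite directions across overlapping ranges.

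The activator pair was split. ARNTL (chromosome 11, 13276652 to 13387266), the subunit whose transcription is the rhythmic one in most tissues, had 181, 173, 171 and 153 normalized counts in control replicates 1 to 4, against 355, 285, 327 and 311 in OGTi replicates 1 to 4. Every OGTi library lay above every control library, and the mean went from 170 ± 11.9 to 319 ± 29.1 (SD, n = 4 each). The log2 fold change was 0.91 ± 0.16 (SE, DESeq2 q of 5.48e-08), and 14.0% of genes with a q had a larger absolute change. CLOCK (chromosome 4, 55427903 to 55546909), the partner that carries histone acetyltransferase activity, had 1738, 1863, 2281 and 2253 in control and 1555, 1259.6, 1571 and 1794 in OGTi replicates. It was lower in all 4 pairs, but OGTi replicate 4 lay above control replicate 1, so the groups overlapped. Its log2 fold change was -0.40 ± 0.09 (q of 6.73e-05). TMEM165, which lies on the opposite strand and shares 25495 bases of gene span with CLOCK, was also lower (-0.63 ± 0.08, q of 3.02e-13). The libraries were strand-specific and were counted by strand.

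Within each library the ratio of ARNTL to CLOCK, taken for this and all other ratios from normalized counts plus 1, was 0.105, 0.0933, 0.0755 and 0.0683 in control and 0.228, 0.227, 0.209 and 0.174 in OGTi replicates. The ratio rose 2.47-fold, by 1.31 on the log2 scale (SD of the 4 pair differences 0.14), and an exact permutation test (two-sided) gave p = 0.0286. No lower value is possible with 4 libraries on each side. The Benjamini-Hochberg adjusted value over the 8 ratios computed was 0.0457. This test sets the groups side by side without the pairing. A paired sign-flip test over the 4 pairs cannot go below an exact p of 0.125, and it gave an adjusted 0.143 for this ratio and for each of the others at 0.0457, so none of the 5 was called with the pairing. Unequal change of both genes is all that such a ratio shows.

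ARNTL carried 1 copy of the RORE core TAGGTCA on the coding strand in the first of its 2 RefSeq promoter windows (250 bases before to 50 bases after a gene start, GRCh38.p14), and 1.85% of all 35116 windows held this motif on either strand. It is shown because ARNTL is the textbook target of NR1D1 and NR1D2, with the RORE in capitals at chr11:13277809-13277837, plus strand, starting 30 bases past the start. The printed fragment touched an annotated exon. CRY2 was the other clock gene with a match, at chr11:45847399-45847427, plus strand, in a fragment that also touched an annotated exon.
ARNTL: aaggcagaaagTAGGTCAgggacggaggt
CRY2: ttgcggcgtcaTAGGTCActgggcgggct
ARNTL was called higher while CRY2 was not called, and a match in the window is a description of letters only.

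The PER genes, which encode the repressor subunits that set the pace of the loop, did not move together. PER1 (chromosome 17, 8140472 to 8156506) counted 1270.4, 1251, 1149 and 1289 in control and 1347, 1278, 1274 and 1152 in OGTi replicates. The ranges nearly coincided, with a log2 fold change of 0.025 ± 0.092, a 95% interval of -0.15 to 0.21 and a q of 0.852. PER2 (chromosome 2, 238244044 to 238290102) had 348, 448, 545 and 539.8 in control and 329, 278, 292 and 272 in OGTi replicates. All OGTi libraries were below all controls, though control replicate 1 came close to them, and the within-pair log2 difference was -0.080 in replicate 1 against -0.69, -0.90 and -0.98 in the others. The DESeq2 value was -0.66 ± 0.16 (q of 0.000130), and leaving out replicate 1 gave -0.86. PER3 (chromosome 1, 7784291 to 7845177) had 565, 552, 637 and 541 in control and 327, 328, 242 and 248 in OGTi replicates. Those groups were well apart, with a log2 fold change of -1.01 ± 0.14 (q of 1.35e-11).

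The ratios within libraries come from the same counts and restate this unequal change. PER1 relative to PER2 rose from 3.65, 2.79, 2.11 and 2.38 in control to 4.09, 4.58, 4.35 and 4.22 in OGTi replicates (0.69 on the log2 scale, exact permutation p of 0.0286, adjusted 0.0457). PER1 relative to PER3 rose from 2.25, 2.26, 1.80 and 2.38 to 4.11, 3.88, 5.24 and 4.62 (1.04 on the log2 scale, exact permutation p of 0.0286, adjusted 0.0457). For PER2 relative to PER3 the difference was 0.35 with an SD of 0.30 over the pairs, and the groups overlapped although all 4 pairs were higher (exact permutation p of 0.114, adjusted 0.131).

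The promoter windows of the PER genes also differed in the clock elements they held. PER1 had an E-box (CACGTG, present in 7.26% of all windows) at chr17:8152561-8152588 and the D-box variant TTATGCAA (0.846% of windows) at chr17:8152416-8152445, both on the minus strand of the genome, which is the coding strand of the gene. The fragment of the D-box variant touched an annotated exon, and that of the E-box did not. PER2 had the E-prime box CACGTT (5.34% of windows) at chr2:238288791-238288818, minus strand, in a fragment that touched an annotated exon. PER3 had the D-box TTATGTAA (0.886% of windows) and, in the windows searched, neither E-box form.
PER1 E-box: gcacccaggtcCACGTGcgcccgtgtgt
PER1 D-box variant: agtgcccggcaTTATGCAAcccgcctcccc
PER2 E-prime box: gcgcgcgcggtCACGTTttccactatgt
The 250 bases before the first PER3 start, at chr1:7784041-7784290, plus strand, touched no annotated exon and are printed with the D-box in capitals.
PER3: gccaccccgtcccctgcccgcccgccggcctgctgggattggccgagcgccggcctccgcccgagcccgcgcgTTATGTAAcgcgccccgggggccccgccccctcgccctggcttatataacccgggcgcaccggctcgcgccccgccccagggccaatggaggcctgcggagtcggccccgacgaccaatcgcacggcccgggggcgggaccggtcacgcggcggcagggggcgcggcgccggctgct
PER3, the PER gene with the D-box and no E-box form in these windows, was called lower, as was PER2 with its E-prime box. PER1, with both an E-box and a D-box variant, was not called. The part of these motifs in the values of the PER genes was not tested.

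CRY1 and CRY2 encode the cryptochromes, the repressors that bind the activator pair directly. CRY1 (chromosome 12, 106991364 to 107093549) counted 1955, 2125, 2090.4 and 1982 in control and 887, 1058, 1044 and 965 in OGTi replicates. The mean went from 2038 ± 82.1 to 988 ± 78.9, and the 4 pair differences of -1.14, -1.01, -1.0 and -1.04 on the log2 scale were close to each other. Its log2 fold change of -1.05 ± 0.08 (DESeq2 q of 2.25e-34) was the largest in size among the 10 genes, with 11% of genes with a q changing more, although PER3 was ahead of it without replicate 1 (-1.08 against -1.01) and without replicate 2 (-1.10 against -1.06). CRY2 (chromosome 11, 45847118 to 45883248) had 334, 269.6, 321 and 331 in control and 383, 302, 351 and 348 in OGTi replicates. It was higher in each of the 4 pairs by 0.07 to 0.20 on the log2 scale, but the groups overlapped, and the fitted value of 0.14 ± 0.14 (95% interval -0.12 to 0.41) was not called (q of 0.415). The ratio of CRY1 to CRY2 fell from 5.84, 7.86, 6.50 and 5.98 in control to 2.31, 3.49, 2.97 and 2.77 in OGTi replicates. This was 0.439 times the control ratio, a log2 difference of -1.19 with an SD of 0.10 over the pairs (exact permutation p of 0.0286, adjusted 0.0457).

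The 250 bases before the CRY1 start, at chr12:107093550-107093799, minus strand, held an E-prime box on the reverse strand (read here as AACGTG) and the CRE half-site TGACG, the core of the element bound by CREB, which 24.6% of all windows held. Both are in capitals, and the sequence is printed because CRY1 gave the smallest q among the clock genes.
CRY1: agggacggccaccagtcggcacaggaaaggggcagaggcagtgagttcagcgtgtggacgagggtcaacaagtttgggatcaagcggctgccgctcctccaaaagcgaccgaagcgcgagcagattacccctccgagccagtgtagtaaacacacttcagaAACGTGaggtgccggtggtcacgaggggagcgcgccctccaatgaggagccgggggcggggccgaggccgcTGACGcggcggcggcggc
The second promoter window of CRY2 also held an E-prime box on the reverse strand, along with the RORE above and CRE half-sites. The part of these motifs in the values of CRY1 and CRY2 was not tested.

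The nuclear receptors NR1D1 and NR1D2 moved in opposite directions. NR1D1 (chromosome 17, 40092793 to 40100589) counted 1065, 1419, 1438 and 1759.8 in control and 1409, 1523, 2069 and 2079 in OGTi replicates. It was higher in all 4 pairs, but control replicate 4 lay above OGTi replicates 1 and 2. The log2 fold change was 0.32 ± 0.09 (DESeq2 q of 0.00210). Without the replicate block it lost its call, with a DESeq2 q of 0.0952 and an edgeR q of 0.110. Leaving out replicate 3 gave 0.245 with a q of 0.0621. NR1D2 (chromosome 3, 23945286 to 23980617) had 1397, 2018, 2424 and 2178 in control and 1296, 1472, 1734 and 1813 in OGTi replicates. It was lower in all 4 pairs with overlapping groups, at -0.33 ± 0.09 (q of 0.000912), and likewise lost its call when the block was dropped (DESeq2 q of 0.0597, edgeR q of 0.0791).

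The ratio of NR1D1 to NR1D2 separated the groups without overlap. It was 0.762, 0.703, 0.593 and 0.808 in control and 1.09, 1.03, 1.19 and 1.15 in OGTi replicates, a 1.56-fold rise of 0.65 on the log2 scale (SD of the pair differences 0.24, exact permutation p of 0.0286, adjusted 0.0457). ARNTL relative to its repressor NR1D1 was 1.51-fold higher, at 0.59 on the log2 scale in 4 of 4 pairs, with overlapping groups (exact permutation p of 0.0857, adjusted 0.114).

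Each receptor gene overlaps a neighbour on the opposite strand. THRA, which encodes a thyroid hormone receptor and shares 1075 bases of gene span with NR1D1, was lower in all 4 pairs (-0.71 ± 0.10, q of 2.57e-11), the opposite direction to NR1D1. NKIRAS1 shares 1306 bases with the start of NR1D2 and was higher in all 4 pairs (0.68 ± 0.16, q of 6.60e-05), the opposite direction to NR1D2. SPHK2, which shares 688 bases with DBP on the opposite strand, was not called (0.036 ± 0.097, q of 0.798). The part of these neighbours in the members' values was not tested.

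**Figure D2:**
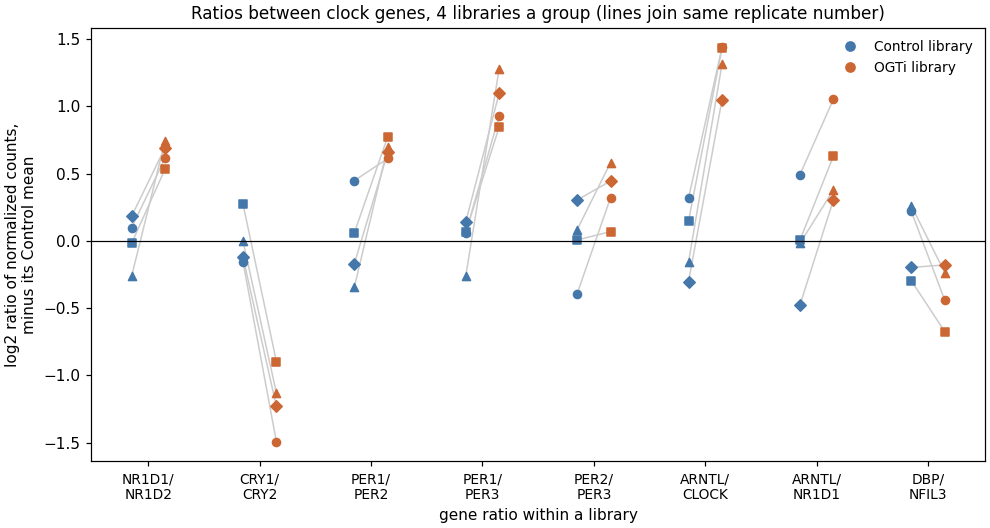
Log2 ratio of the normalized counts of 2 genes within each library, minus the mean of that ratio in control (vertical axis), for 8 ratios and 4 libraries a group, with lines joining the same replicate number. The groups do not overlap for 5 ratios, of which CRY1 to CRY2 falls by 1.19 and ARNTL to CLOCK rises by 1.31 on the log2 scale.

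The receptor promoters are printed as a pair because the genes moved apart. The 250 bases before the NR1D1 start, at chr17:40100590-40100839, minus strand, held an E-prime box on the reverse strand. The 250 bases before the second NR1D2 start, at chr3:23945871-23946120, plus strand, held an E-box at each of 2 sites, a D-box on the reverse strand (TTACATAA) and the CRE half-site TGACG at each of 2 sites, all in capitals. This window lies within the gene span of NKIRAS1, and neither window touched an annotated exon.
NR1D1: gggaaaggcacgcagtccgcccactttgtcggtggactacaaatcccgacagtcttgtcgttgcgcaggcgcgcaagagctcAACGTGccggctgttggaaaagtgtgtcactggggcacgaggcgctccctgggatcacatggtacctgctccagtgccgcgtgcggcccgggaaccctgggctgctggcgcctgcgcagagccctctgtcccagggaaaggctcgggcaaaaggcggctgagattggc
NR1D2: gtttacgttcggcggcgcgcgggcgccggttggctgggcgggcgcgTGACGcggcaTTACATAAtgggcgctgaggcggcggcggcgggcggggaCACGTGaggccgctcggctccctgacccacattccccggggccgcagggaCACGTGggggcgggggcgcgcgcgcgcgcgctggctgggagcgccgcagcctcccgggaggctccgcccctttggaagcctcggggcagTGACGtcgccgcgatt
The receptor gene with 2 E-boxes was the one called lower, and the one with an E-prime box alone was called higher. An E-prime box was also found in windows of CLOCK, PER2 and CRY1, which were called lower, and of CRY2, which was not called. The first NR1D2 window held a CRE half-site and neither E-box form. The part of these motifs in the values of NR1D1 and NR1D2 was not tested. DBP had none of the 7 motifs in its window.

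DBP (chromosome 19, 48630030 to 48637379), the output activator, counted 157, 120.2, 131 and 116 in control and 152, 153, 184 and 163 in OGTi replicates. It was higher in 3 of 4 pairs, with control replicate 1 above OGTi replicate 1. The log2 fold change of 0.32 ± 0.20 had a 95% interval of -0.08 to 0.71 and was not called (q of 0.196). DBP relative to NFIL3, which encodes the repressor that competes for the same D-boxes, was 0.768 times the control ratio, lower in 3 of 4 pairs with overlapping groups (exact permutation p of 0.143, adjusted 0.143).

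**Figure D3:**
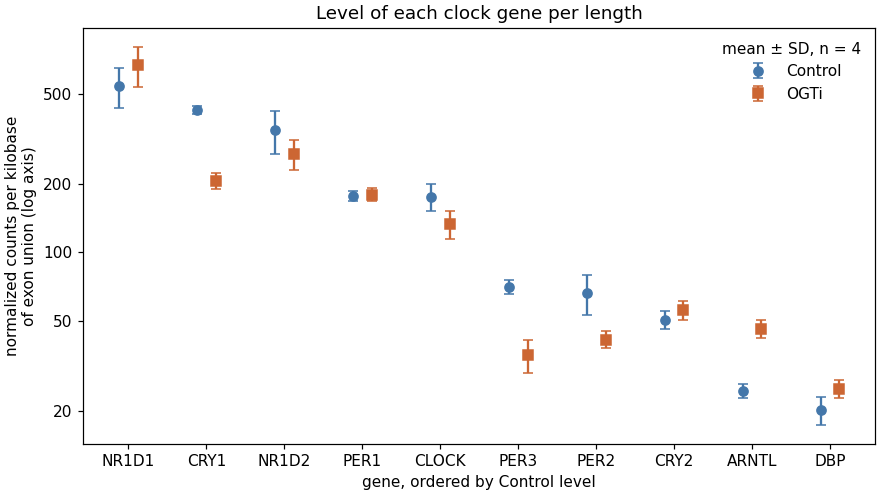
Normalized counts per kilobase of annotated exon (log axis) for each clock gene in control and OGTi cells, mean ± SD over 4 libraries, ordered by the control level. With this length NR1D1 is highest and DBP lowest in both groups, an order that turns with the canonical transcript (CRY1 highest in control, DBP above PER2 and PER3 in OGTi cells), and CRY1 drops from 426 to 207 per kilobase.

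Levels were compared between genes as normalized counts per kilobase of exon union, which is all annotated exon bases of a gene. In control cells NR1D1 was at 540 ± 108, CRY1 at 426 ± 17.2 and NR1D2 at 346 ± 75.6, and the libraries of neighbours in this order overlapped. PER1 at 177 ± 8.91 and CLOCK at 176 ± 23.8 followed, overlapping each other but below every library of the first 3 genes. PER3 (70.6 ± 5.30), PER2 (66.3 ± 13.1) and CRY2 (50.6 ± 4.84) came next, with PER2 overlapping both of the others. ARNTL (24.5 ± 1.72) and DBP (20.2 ± 2.81) were lowest and overlapped. In OGTi cells NR1D1 (673 ± 135) stood above every library of NR1D2 (273 ± 41.2), and every NR1D2 library now stood above every CRY1 library (207 ± 16.5). ARNTL at 46.0 ± 4.19 passed PER2 (41.3 ± 3.58) and PER3 (35.3 ± 5.87) in the order of means, with overlap between ARNTL and PER2. These levels and their order depend on the length used. With the canonical transcript CRY1 was above NR1D1 in control (682 against 540.0) and above NR1D2 in OGTi cells (331 against 302), and with the longest transcript the OGTi libraries of NR1D2 (248 to 347) and CRY1 (231 to 276) overlapped. DBP was at 60.4 in control with the canonical transcript, and at 75.0 in OGTi cells, above PER2 (45.9) and PER3 (45.0).

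The other clock transcription factors were counted from a list of 9 genes, of which 6 passed the count filter, 1 was called higher and 2 lower, a share called near the 46.6% of all genes. ARNTL2 (BMAL2), the paralog of ARNTL, was by length far above ARNTL, at 706 ± 60.7 per kilobase in control and 541 ± 62.2 in OGTi cells. Its normalized counts were 4959.7, 4381, 5414 and 5007 in control and 4188, 3273, 3586 and 4107 in OGTi replicates. Those groups did not overlap, and the log2 fold change was -0.39 ± 0.08 (q of 5.35e-06), opposite in direction to ARNTL. NPAS2, the paralog of CLOCK, had 7 counts over all 8 libraries and was not tested.

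CIART (CHRONO), a repressor of the activator pair, fell from 279.6, 295, 310.3 and 335 to 142, 161, 179.8 and 193 normalized counts, a log2 fold change of -0.86 ± 0.16 (q of 3.32e-07). BHLHE40 (DEC1), which represses at E-boxes, rose from 356, 653, 537 and 574 to 676, 767, 811 and 849 (0.58 ± 0.12, q of 1.88e-05). Its paralog BHLHE41 was not called, at 247 ± 45.3 and 246 ± 43.2 (-0.003 ± 0.158, q of 0.990). RORA, the activator at RORE elements, averaged 47.7 ± 4.5 in control and 44.7 ± 6.09 in OGTi cells, with a wide 95% interval of -0.74 to 0.55 on the log2 scale (q of 0.842). RORB had 4 counts over all libraries and was not tested. TIMELESS, which acts in DNA replication in mammals, was not called (-0.007 ± 0.073, q of 0.949). Among 7 replication and mitosis genes counted beside it, 4 were lower and 1 higher, beside 24.0% lower and 22.7% higher over all genes. The largest statistics were those of TOP2A (-0.92 ± 0.06), CCNB1 (-1.0 ± 0.09) and CLSPN (0.50 ± 0.08). MKI67, also lower, was near the threshold with overlapping groups (-0.57 ± 0.25, q of 0.0497). Without replicate 2, 3 or 4, or with no filter on low counts, 4 of the 7 were called in place of 5.

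**Figure D4:**
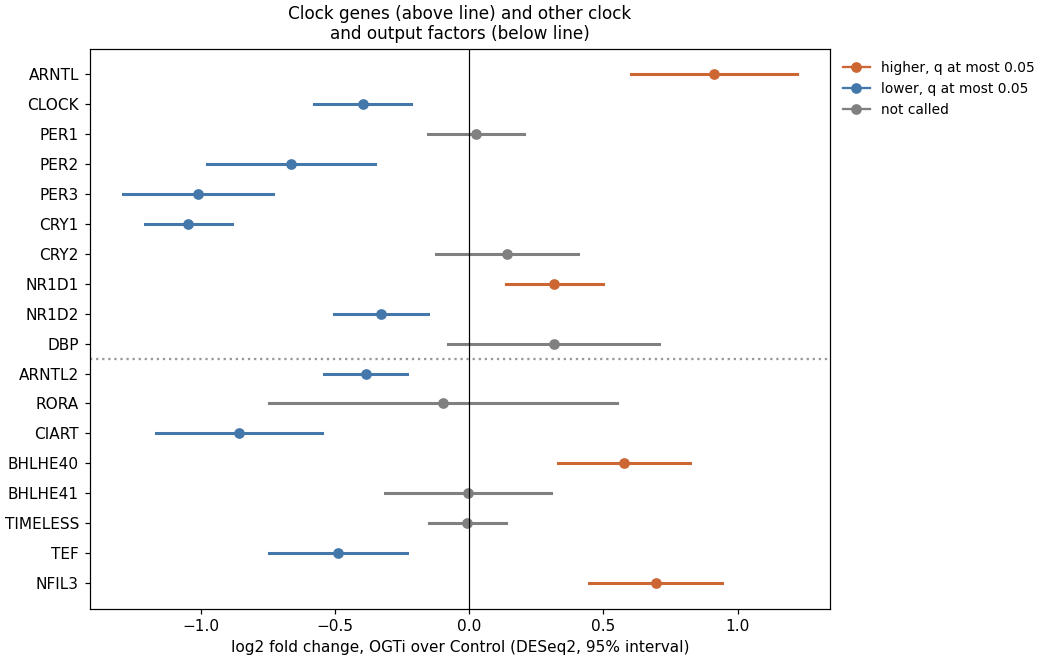
DESeq2 log2 fold change of OGTi over control (horizontal axis) with its 95% interval for the 10 clock genes above the dotted line and for 8 other clock and output factors below it, coloured by call. ARNTL, NR1D1, BHLHE40 and NFIL3 lie to the right of 0, and CLOCK, PER2, PER3, CRY1, NR1D2, ARNTL2, CIART and TEF lie to the left.

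Beside DBP, the output bZIP factors were split as well. TEF, an activator at D-boxes like DBP, fell from 394, 387, 417 and 500.3 to 285, 276, 316 and 329.6 normalized counts (-0.49 ± 0.13, q of 0.000724). NFIL3 (E4BP4), the repressor at D-boxes, rose from 391, 428, 317 and 388 to 598, 707, 628 and 536 (0.70 ± 0.13, q of 2.64e-07). Neither gene's groups overlapped. HLF had a mean of 2.66 in control and 3.95 in OGTi libraries and was not called (q of 0.682).

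A list of 17 genes held kinases, phosphatases, ubiquitin ligases and ubiquitin-removing enzymes (USP2 and USP7) that act on clock proteins. Of these genes 16 were tested, 0 were called higher and 7 lower by DESeq2, with a median log2 fold change of -0.18. Their share called was just under the 46.6% of all genes, of which 22.7% were higher and 24.0% lower. Among those called lower were PRKAA1, the AMPK subunit that phosphorylates CRY1 (-0.42 ± 0.09, q of 2.80e-05), and PPP5C, a phosphatase (-0.34 ± 0.08, q of 9.56e-05). PRKAA1 was lower in all 4 pairs, but OGTi replicate 4 (5547) lay above control replicate 1 (5158), so its groups overlapped. At an unadjusted p under 0.05, 0 of the 16 were higher in DESeq2, and edgeR with the block also called 0 higher. Of 15 co-regulators, 1 was called higher and 6 lower, with a median of -0.10, a share called close to that over all genes (46.6%). TBL1XR1, a subunit of the HDAC3 co-repressor complex through which NR1D1 represses, fell by 1.0 ± 0.10 on the log2 scale (q of 3.14e-20), and SFPQ, a PER-associated RNA-binding protein, by 0.58 ± 0.08 (q of 1.01e-12).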

How the data were processed

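LX-2 messenger RNA was sequenced as strand-specific, paired-end poly(A) libraries. The deposited gene table holds expected counts that, per the submitters' processing notes, the authors made with Bowtie2 2.3.5.1 on hg38 and RSEM 1.3.1. They were not normalized. A table of the authors' own comparison (fold changes and p-values, DESeq2 1.36.0) was not used.

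Expected counts were rounded, and the 14895 genes of 16796 with a total of at least 10 counts were fitted with DESeq2 1.42.0 (R 4.3.3, Wald test, no shrinkage) with group and replicate number as terms. A gene was called at q of 0.05 or lower. DESeq2 gave 14028 genes a q. Same-numbered libraries, which the study pairs, deviated together from their group means (r of 0.372, 0.391, 0.165 and 0.327 over 10994 genes, where genes are not independent replicates), although control 3 correlated more with OGTi 4 (0.343) and control 4 with OGTi 3 was at 0.255. Ratios of 2 genes used log2 of normalized counts plus 1 and exact permutation tests (scipy 1.17.1). Lengths and positions came from GENCODE release 44 and promoter windows from RefSeq (GRCh38.p14). The fits were tested on simulated data. Alternatives were edgeR 4.0.16, TMM scaling, other count filters, no block and each replicate left out.

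The members and gene lists were chosen with earlier results of these data known. All members, the other clock transcription factors and output bZIP factors are named, and of each further list the 3 genes with the largest absolute Wald statistic among those called, except that some items are not reported here. Total counts were 24166756 to 28201215 per library. Pairs of libraries within a group differed by more than counting noise (chi-square per degree of freedom of 8.66 to 36.2), so depth alone did not set the precision. The intervals give the uncertainty of the mean change between groups, fitted with replicate number as a term. They do not give the spread between libraries, and they hold for 1 cell line.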

Additional observations from a re-analysis of the deposited data

Results flagged for a closer look

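No group of 4 libraries had its highest or lowest value set apart from the others beyond Dixon's critical gap, in 36 groups tested (the 10 clock genes and 8 ratios in each group), where chance alone gives about 1.8.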

How the results depend on the processing

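Of the settings tried, dropping the replicate block changed the members' calls, leaving 1 called higher (ARNTL) in DESeq2 and 1 in edgeR, with 5 called in total in each. NR1D1 was at 0.32 in both fits (q of 0.0952 and 0.110) and NR1D2 at -0.34 (-0.344 and -0.341, q of 0.0597 and 0.0791). The cause was not tested. The block changed no other member's call, and edgeR with the block called the same number. With each replicate left out in turn, 1 to 2 members were called higher, NR1D1 ranged from 0.245 (without replicate 3, q of 0.0621) to 0.39, PER1 from -0.019 (without replicate 3) to 0.087 with no call, and 4 to 6 co-regulators were called, as fewer samples entered.

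For ratios, a sign-flip test over the 4 pairs, the form with the replicate block, cannot go below p = 0.125 in this exact test, and it gave an adjusted 0.143 for NR1D1 to NR1D2 (0.645), CRY1 to CRY2 (-1.19), PER1 to PER2 (0.687), PER1 to PER3 (1.04) and ARNTL to CLOCK (1.31). Leaving out each replicate gave 0.525 to 0.692, -1.21 to -1.14, 0.567 to 0.861, 0.869 to 1.12 and 1.25 to 1.37 for these, where 3 libraries against 3 cannot reach an exact p below 0.1.

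Control levels per kilobase depended on the length. With the longest and the canonical transcript they were 43.9 and 60.8 for ARNTL, 265 and 265 for PER1, 90.1 and 90.1 for PER3, 532 and 682 for CRY1 and 74.6 and 76.0 for CRY2, and 60.4 for DBP with the canonical one, a setting chosen after seeing the data. Over all genes, 5127 (without replicate 2) to 7074 (edgeR with the block) were called, against 6541.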

Other observations

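PER1, which was not called, is also induced by cAMP and glucocorticoid signalling, and 11 genes that share those inputs were counted beside it. Of these, 3 were called higher, 3 lower and 5 were not called, with a median log2 fold change of -0.05, beside 46.6% of all genes called (22.7% higher and 24.0% lower). KLF9, a glucocorticoid-induced transcription factor, fell from 505, 660, 706 and 475 normalized counts in control to 123, 135, 145 and 205 in OGTi replicates (-1.95 ± 0.18, DESeq2 q of 1.08e-26). NR4A3, an immediate early nuclear receptor, rose from 73.1, 146, 83.9 and 84.2 to 430.4, 353, 299.95 and 353 (1.92 ± 0.20, q of 1.36e-19). DUSP1, a MAP kinase phosphatase, fell by 0.56 ± 0.09 on the log2 scale (q of 2.16e-08).

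Of 10 genes listed as outputs of the clock, 9 were tested, 2 were called higher and 4 lower, with a median of -0.31. Over all genes the shares were the same as above (22.7% higher and 24.0% lower). CDKN1A, the cell cycle inhibitor p21, rose from 1138, 1218, 1178 and 1653 to 4154, 4357, 4918 and 6063 normalized counts (1.91 ± 0.08, DESeq2 q of 1.91e-134). KLF11, a transcriptional repressor, fell by 1.17 ± 0.12 (q of 5.82e-20) and E2F8, a repressor of cell cycle genes, by 1.0 ± 0.12 on the log2 scale (q of 1.05e-14). These genes also respond to signals outside the clock, and the part of the clock in their values was not tested.

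Replicate 1 gave the lowest control value for the members CLOCK, PER2, CRY1, NR1D1 and NR1D2, and for CIART, BHLHE40 and BHLHE41. It gave the lowest OGTi value for CRY1, NR1D1, NR1D2, DBP, CIART, BHLHE40 and TIMELESS. This was noticed after the values were seen and was not tested. The NR1D1 and NR1D2 values of control replicate 1 were 1065 and 1397, below all the other control libraries and below every OGTi library except that of NR1D2 in replicate 1 (1296).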
